A study of Mus musculus with 30 samples.

Results

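Cholesterol synthesis, uptake and LXR target genes were described in kidney and gastrocnemius RNA-seq libraries of mice fed a chow diet (CD), a western diet (WD) or a WD with cyclo(His-Pro) (CHP), a cyclised histidine-proline dipeptide. The 32 genes were chosen by their symbols, out of 54838 genes in the kidney table and 55487 in the gastrocnemius table. They were 21 genes driven by SREBP2 (18 enzymes of cholesterol synthesis with *Srebf2*, *Insig1* and *Stard4*), 5 genes driven by LXR (*Abca1*, *Abcg1*, *Mylip*, *Apoe* and *Nr1h3*) and 6 genes counted with neither class (*Scap*, *Nr1h2*, *Scarb1*, *Npc1*, *Npc2* and *Soat1*). All 32 passed the filter on low counts in both tissues.
The animals were wild-type male C57BL/6J mice, and each of the 3 groups gave 5 libraries per tissue, 30 in all. Thermoneutral housing at 30 to 32 °C began at 6 weeks of age for every group, so no group shows the diet without it. Diets started at Week 7 and the mice were killed at Week 24. In between, the WD+CHP mice had 20 mg/kg CHP by gavage on 3 occasions each week, and the CD and WD mice received water. Organs were collected after a fast of 3 h. By the study's methods each library of a tissue came from 1 mouse. The study lists fewer mice than these libraries, so some kidneys and muscles come from the same animal, but no source says which.

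Cholesterol is made from acetyl-CoA through mevalonate, farnesyl diphosphate, squalene and lanosterol. When sterols are scarce in the membrane of the endoplasmic reticulum, SCAP carries SREBP2 to the Golgi, where it is cut and released to activate nearly every enzyme of this route. INSIG proteins hold the complex back when sterols are plentiful. LXR receptors work on the opposite side, since they bind oxidised sterols and raise the genes that export cholesterol (*Abca1*, *Abcg1*), carry it (*Apoe*) or mark lipoprotein receptors for degradation (*Mylip*). In the kidney the proximal tubule reabsorbs lipoprotein components.

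Total gene counts ran from 37189192 to 38211422 in the kidney libraries and from 50319024 to 53282969 in the gastrocnemius libraries. Of 10 proximal tubule markers, 10 passed the filter in kidney and 1 in gastrocnemius (*Pck1*), and of 10 fast muscle fibre markers 4 and 10 passed, respectively, although according to the labels RNA was extracted from frozen liver. The 8 hepatocyte markers summed to 79.9 CPM (counts per 1000000 counts of the library) in gastrocnemius CD replicate 1 and 77.9 CPM in WD replicate 3, and to between 4.14 and 19.3 CPM in the other gastrocnemius libraries. All WD+CHP libraries (4.14 to 5.74 CPM) lay below all CD libraries (11.7 to 79.9 CPM), and WD (5.07 to 77.9 CPM) overlapped both. The part of this difference in the gastrocnemius results of WD+CHP vs. CD was not tested. In kidney, where *Cyp2e1* is itself abundant, *Alb* stood at 424 CPM in WD replicate 5, 81.4 CPM in CD replicate 1 and 8.98 to 27.8 CPM elsewhere. Of the 9 steroid-producing adrenal markers, 2 passed the filter in kidney and 1 in gastrocnemius, and *Cyp11b2* was at 0 counts in every kidney library.

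Promoters of 25 of the 32 genes were found in RefSeq (GRCm38.p6), each running from 250 bases before to 50 bases after the gene's start. RefSeq held 3 for *Dhcr7* and *Apoe* and 2 for *Pmvk*, *Scap* and *Nr1h3*, and only the promoter nearest a GENCODE start of the gene was scanned. No entry was matched for *Fdps*, *Fdft1*, *Sqle*, *Stard4*, *Abcg1*, *Scarb1* or *Npc1*. The promoters of 7 of the genes called in WD vs. CD are printed. *Idi1*, *Cyp51*, *Sc5d* and *Dhcr7* fell in kidney, *Mvd* and *Hmgcs1* rose in gastrocnemius, and *Mylip* fell in kidney where *Abcg1*, another LXR target, rose. The calls of *Hmgcs1* and *Mylip* held in only 3 and 6 of 10 fits that left out 1 library. *Mvk*, whose fall in kidney held in all 10, is not printed. Capitals mark matches, on either strand, to the sterol regulatory element (SRE, TCACNCCAC), to a looser form of it (TCACNNCA, which holds every SRE match) and to the NF-Y box (CCAAT, read as ATTGG on the other strand). The RefSeq starts lay 0 to 105 bases from the GENCODE starts of these 7 genes. Among the other promoters found, those of *Soat1* (7524 bases), *Pmvk* (453), *Nr1h2* (279) and *Msmo1* (214) lay farther off. *Hmgcs1* is at chr13:119690101-119690400 (plus strand), *Idi1* at chr13:8885356-8885655 (plus), *Cyp51* at chr5:4104648-4104947 (minus), *Sc5d* at chr9:42264251-42264550 (minus), *Dhcr7* at chr7:143822917-143823216 (plus), *Mvd* at chr8:122443373-122443672 (minus) and *Mylip* at chr13:45389492-45389791 (plus).
Idi1: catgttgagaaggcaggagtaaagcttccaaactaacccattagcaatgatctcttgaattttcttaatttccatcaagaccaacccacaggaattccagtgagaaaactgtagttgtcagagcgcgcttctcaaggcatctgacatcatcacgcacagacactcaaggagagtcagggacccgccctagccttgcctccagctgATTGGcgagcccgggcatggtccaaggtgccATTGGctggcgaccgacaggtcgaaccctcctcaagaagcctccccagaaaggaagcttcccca
Cyp51: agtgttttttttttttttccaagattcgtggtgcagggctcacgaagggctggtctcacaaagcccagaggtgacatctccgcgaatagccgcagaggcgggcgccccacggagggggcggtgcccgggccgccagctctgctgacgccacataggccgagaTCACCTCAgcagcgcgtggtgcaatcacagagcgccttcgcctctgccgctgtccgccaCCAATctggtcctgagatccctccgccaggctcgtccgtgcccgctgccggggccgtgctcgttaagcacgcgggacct
Sc5d: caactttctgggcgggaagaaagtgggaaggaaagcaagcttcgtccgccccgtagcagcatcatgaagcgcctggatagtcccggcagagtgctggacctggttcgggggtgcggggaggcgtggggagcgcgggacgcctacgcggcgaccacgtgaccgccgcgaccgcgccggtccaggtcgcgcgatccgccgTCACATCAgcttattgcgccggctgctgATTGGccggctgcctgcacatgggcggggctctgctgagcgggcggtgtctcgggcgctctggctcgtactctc
Dhcr7: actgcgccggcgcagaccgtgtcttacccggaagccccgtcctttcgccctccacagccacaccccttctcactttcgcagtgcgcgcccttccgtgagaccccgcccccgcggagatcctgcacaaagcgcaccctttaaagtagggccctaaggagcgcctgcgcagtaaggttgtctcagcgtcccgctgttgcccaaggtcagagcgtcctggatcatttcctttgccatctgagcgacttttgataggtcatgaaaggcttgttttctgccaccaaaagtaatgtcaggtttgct
Mvd: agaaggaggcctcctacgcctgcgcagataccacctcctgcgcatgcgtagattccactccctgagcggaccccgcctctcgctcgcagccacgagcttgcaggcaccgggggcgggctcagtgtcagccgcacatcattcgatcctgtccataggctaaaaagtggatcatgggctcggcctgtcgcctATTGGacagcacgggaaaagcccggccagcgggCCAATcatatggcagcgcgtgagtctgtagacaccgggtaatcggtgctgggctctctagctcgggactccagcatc
Hmgcs1: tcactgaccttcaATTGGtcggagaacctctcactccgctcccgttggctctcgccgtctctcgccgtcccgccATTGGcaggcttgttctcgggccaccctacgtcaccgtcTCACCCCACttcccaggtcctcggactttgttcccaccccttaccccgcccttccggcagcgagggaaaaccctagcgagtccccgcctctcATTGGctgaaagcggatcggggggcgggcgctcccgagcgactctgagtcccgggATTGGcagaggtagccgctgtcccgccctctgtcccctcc
Mylip: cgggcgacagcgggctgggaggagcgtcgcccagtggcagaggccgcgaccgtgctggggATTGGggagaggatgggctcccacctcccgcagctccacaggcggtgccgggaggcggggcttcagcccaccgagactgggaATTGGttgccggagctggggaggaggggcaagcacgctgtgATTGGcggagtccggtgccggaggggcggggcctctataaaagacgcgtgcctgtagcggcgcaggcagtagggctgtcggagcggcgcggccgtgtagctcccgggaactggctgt
The SRE stood in the *Hmgcs1* promoter only, at -137 from the start, that is in 1 of the 17 SREBP2-driven promoters and in 1.24% of all 32851 promoters of the same length. The looser form was in 7 of these 17 promoters and in 13.8% of all. An NF-Y box was in 14 of the 17, and in 37.4% of all, and its nearest copy lay at -14 in *Idi1*, -29 in *Cyp51* and -24 in *Sc5d*. The 1 of 3 *Dhcr7* promoters that was scanned held 0 SRE, 0 looser and 0 NF-Y matches. The Sp1 box (GGGCGG) was in 16 of the 17, and in 35.7% of all. The DR4 element of LXR was searched as RGKTYA repeated after 4 bases. Here R is A or G, K is G or T and Y is C or T. It was in 0 of the 4 LXR-driven promoters and in 0.231% of all. The *Abca1* window holds tgaccggtagtaaccc, which read on the other strand departs from these letters at 1 base and was not counted. The genes themselves span chr13:8885501-8892451 (*Idi1*), chr5:4081145-4104746 (*Cyp51*), chr8:122433601-122443422 (*Mvd*), chr17:31057675-31117988 (*Abcg1*), chr13:45389742-45412022 (*Mylip*), chr1:156424525-156474331 (*Soat1*) and chr12:84754562-84773152 (*Npc2*) in GENCODE M21 (GRCm38). These matches describe letters in a short window, and the letters of an element outside it were not searched.

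On CD, 29 of the 32 genes were read more in kidney than in gastrocnemius per kb of exon, including 17 of the 18 synthesis enzymes. The 2 tables were scaled separately, so this is a comparison of levels with no test. CPM are shares of a library, and the 10 fast muscle fibre markers took 208157 to 247502 CPM of the CD gastrocnemius libraries. That leaves less for every other gene of this tissue, and the share of all genes higher in kidney was not counted. *Hmgcs1*, which condenses acetyl-CoA into HMG-CoA, led the kidney enzymes at 89.4 ± 6.2 CPM per kb (SD, n = 5), followed by *Cyp51*, the lanosterol demethylase, at 75.8 ± 3.1 CPM per kb. *Apoe*, the lipoprotein ligand, lay between them at 83.2 ± 24.1 CPM per kb, and its spread covered both. In gastrocnemius *Apoe* was at the top with 32.5 ± 7.0 CPM per kb, and the leading enzymes were *Fdft1* (squalene synthase) at 18.2 ± 1.7 CPM per kb and *Hmgcs1* at 7.15 ± 0.44 CPM per kb. *Sqle*, the squalene epoxidase that follows *Fdft1* in the route, differed most between tissues, at 14.3 CPM per kb in kidney and 0.162 CPM per kb in gastrocnemius, a ratio of 88.5, and *Cyp51* came next with a ratio of 78.0. *Fdft1*, *Scarb1* (a receptor for high-density lipoprotein) and *Npc1* (which moves cholesterol out of lysosomes) were the 3 genes higher in gastrocnemius, at 18.2 vs. 6.72, 2.41 vs. 1.88 and 10.2 vs. 2.13 CPM per kb.
Among the control genes *Srebf2* (14.5 ± 1.0 CPM per kb) and *Stard4*, a sterol carrier (13.9 ± 1.0), led in kidney. They did not differ beyond their spread from each other or from *Insig1* (12.6 ± 2.1). In gastrocnemius *Insig1* (5.77 ± 0.78) and *Scap* (3.49 ± 0.15) led. *Nr1h2*, encoding LXR beta, stood above *Nr1h3*, encoding LXR alpha, in both tissues (24.4 ± 1.2 vs. 15.5 ± 0.9 CPM per kb in kidney, 11.1 ± 0.3 vs. 5.13 ± 0.29 in gastrocnemius). *Mylip* was the second LXR target in either tissue, at 19.4 ± 8.0 and 8.49 ± 0.79 CPM per kb. Among the transport and storage genes *Npc2* (15.5 ± 0.5) and *Soat1*, which esterifies cholesterol (2.93 ± 0.28), led in kidney, and *Npc1* (10.2 ± 0.8) and *Npc2* (5.05 ± 0.10) in gastrocnemius. *Fdps*, the farnesyl diphosphate synthase, was read at only 4 to 26 counts per library, and 26.2% of its 50-base stretches occur in other genes, 7 of them pseudogenes, so its level is uncertain. Such shared stretches also made up 39.1% of *Acat2* (cytosolic acetyl-CoA acetyltransferase), 17.7% of *Idi1*, 9.87% of *Tm7sf2* and 9.38% of *Fdft1*, and a gene on the other strand overlaps 18.3% of the *Fdft1*, 13.2% of the *Scap*, 12.1% of the *Hmgcs1*, 9.22% of the *Idi1* and 5.31% of the *Npc1* exons, while the strand setting of the counting is not stated. On the same strand, another gene overlaps 26.7% of the *Fdps* and 12.1% of the *Tm7sf2* exons.

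**Figure D1:**
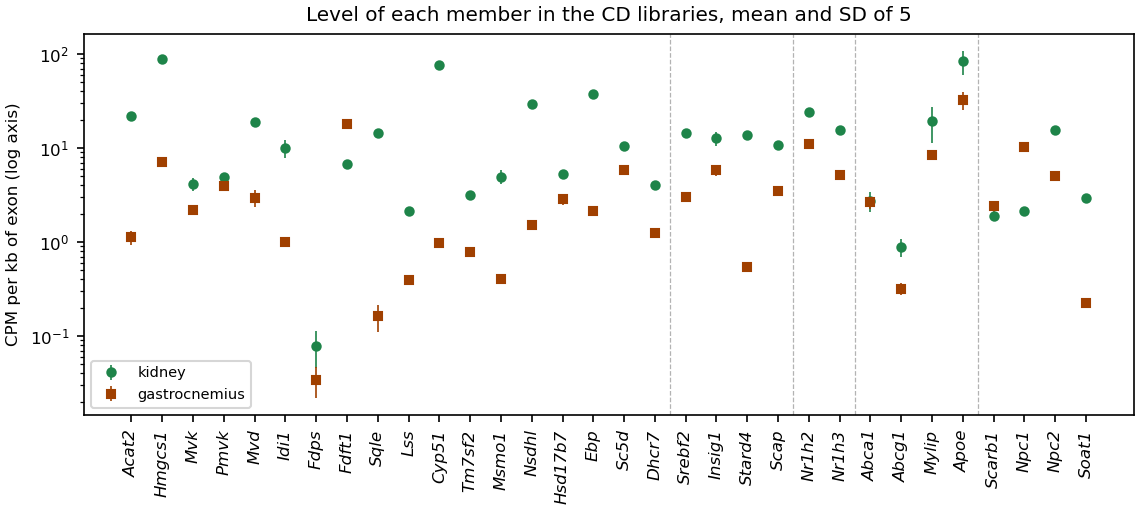
Level of each of the 32 genes in the CD libraries of kidney (circles) and gastrocnemius (squares), as CPM per kb of exon on a log axis, mean and SD of 5 libraries; dashed lines separate synthesis enzymes, SREBP2 control genes, LXR receptors, LXR targets and transport genes. Kidney lies above gastrocnemius for 29 genes, with the widest gap at *Sqle* (14.3 vs. 0.162 CPM per kb).

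Part of the cholesterol synthesis route was lower in the kidneys of WD-fed mice. Of the 18 enzymes, 5 fell in WD vs. CD (*Mvk*, *Idi1*, *Cyp51*, *Sc5d* and *Dhcr7*), 0 rose and 13 did not pass the test. Over all members 10 of 32 passed, 1 upwards and 9 downwards, where 9.65% of the 17120 genes tested passed (4.62% upwards, 5.03% downwards; edgeR's quasi-likelihood F test, adjusted p under 0.05). The median log2 fold change was -0.10 over the 21 SREBP2-driven genes, 0.19 over the 5 LXR-driven genes and 0.0015 over all genes. In whole tissue, fewer cells of a type and less RNA per cell cannot be told apart. Values below are in CPM, in the order of replicates 1 to 5.

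*Idi1*, which isomerises isopentenyl diphosphate, stood at 33.0, 45.2, 41.2, 29.8 and 27.1 CPM in the CD kidneys, 15.7, 16.6, 16.5, 23.6 and 21.2 in WD and 27.3, 28.1, 25.4, 25.4 and 19.0 in WD+CHP. Every WD library lay below every CD library, and 4 of the 5 WD+CHP libraries lay above all WD libraries. *Idi1* fell by 46.9% in WD vs. CD (log2 fold change -0.91, standard error 0.15, adjusted p = 0.00126) and remained lower than CD with CHP (log2 fold change -0.49, standard error 0.14, adjusted p = 0.0353), a call that was lost in 6 of 10 fits that left out 1 library (adjusted p up to 0.0945).
*Mvk*, the mevalonate kinase, read 10.6, 13.8, 11.8, 9.21 and 10.3 CPM on CD, 7.76, 7.39, 7.99, 9.13 and 9.25 on WD and 8.59, 9.83, 9.04, 8.71 and 7.79 on WD+CHP. The CD and WD values overlapped only at CD replicate 4. It fell in WD vs. CD (log2 fold change -0.43, standard error 0.10, adjusted p = 0.0122), and its difference between WD+CHP and CD (log2 fold change -0.34, standard error 0.10, adjusted p = 0.0321) was lost in 6 of 10 fits without 1 library. *Pmvk*, the next kinase of the route, read 8.69, 8.82, 7.90, 8.38 and 8.68 CPM on CD, 7.52, 7.18, 7.96, 7.97 and 6.74 on WD and 6.66, 7.39, 6.59, 7.13 and 5.95 on WD+CHP. All 5 WD+CHP libraries lay below the CD libraries, and WD overlapped both. *Pmvk* was lower in WD+CHP than in CD (log2 fold change -0.33, standard error 0.07, adjusted p = 0.00512), whereas WD vs. CD gave log2 fold change -0.18, standard error 0.07, adjusted p = 0.0880.

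*Cyp51* was read at 321, 325, 350.2, 349 and 329 CPM on CD, 250.2, 269, 248, 236 and 246 on WD and 287, 282, 298, 238 and 225 on WD+CHP. Its CD libraries lay above all others. It fell by 25.4% in WD vs. CD (log2 fold change -0.42, standard error 0.07, adjusted p = 0.00115) and was also lower in WD+CHP than in CD (log2 fold change -0.33, standard error 0.07, adjusted p = 0.00523).
The last steps of the route are catalysed by *Sc5d*, a desaturase, and *Dhcr7*, the 7-dehydrocholesterol reductase. *Sc5d* read 51.1, 52.2, 50.5, 47.5 and 54.0 CPM on CD, 42.4, 40.2, 41.0, 46.8 and 46.9 on WD and 47.0, 45.5, 50.9, 45.6 and 46.2 on WD+CHP. The WD libraries lay below the CD libraries, and WD+CHP lay between and overlapped both. *Sc5d* fell in WD vs. CD (log2 fold change -0.23, standard error 0.05, adjusted p = 0.00968), and WD+CHP vs. CD did not pass (log2 fold change -0.12, standard error 0.05, adjusted p = 0.150). *Dhcr7* read 23.4, 25.7, 24.8, 20.5 and 22.9 CPM on CD, 17.5, 19.1, 17.7, 18.6 and 18.6 on WD and 18.8, 19.1, 21.2, 19.6 and 19.0 on WD+CHP. Its WD values were below all CD values, and the highest WD+CHP library overlapped CD. It fell in WD vs. CD (log2 fold change -0.36, standard error 0.06, adjusted p = 0.000910) and in WD+CHP vs. CD (log2 fold change -0.26, standard error 0.06, adjusted p = 0.00639), and both calls held in all 10 fits that left out 1 library.

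*Lss*, the lanosterol synthase, went the other way. It stood at 23.1, 24.3, 23.4, 23.3 and 21.6 CPM on CD, 23.7, 26.6, 24.7, 26.7 and 22.9 on WD and 24.4, 27.2, 25.4, 25.9 and 25.9 on WD+CHP, and every WD+CHP library exceeded the CD libraries. *Lss* rose by 11.5% in WD+CHP vs. CD (log2 fold change 0.16, standard error 0.05, adjusted p = 0.0441), a small change that was called in 2 of 10 fits without 1 library and had an adjusted p of 0.141 with scaling by total count. By edgeR, the enzymes that passed in neither kidney comparison with CD were *Acat2*, *Hmgcs1*, *Mvd*, *Fdps*, *Fdft1*, *Sqle*, *Tm7sf2*, *Msmo1*, *Nsdhl*, *Hsd17b7* and *Ebp*. Their log2 fold changes in WD vs. CD lay between -0.21 and 0.50, the upper end being the sparsely read *Fdps*. Of these, *Mvd* was at a log2 fold change of 0.24 in WD+CHP vs. CD (adjusted p = 0.0549), and DESeq2 called it (adjusted p = 0.0271). *Hmgcs1*, the most abundant of them, read 392, 439, 372, 434 and 416 CPM on CD and 386, 409, 403, 429 and 399 on WD, groups that overlapped (log2 fold change -0.02, standard error 0.07, adjusted p = 0.894).

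**Figure D2:**
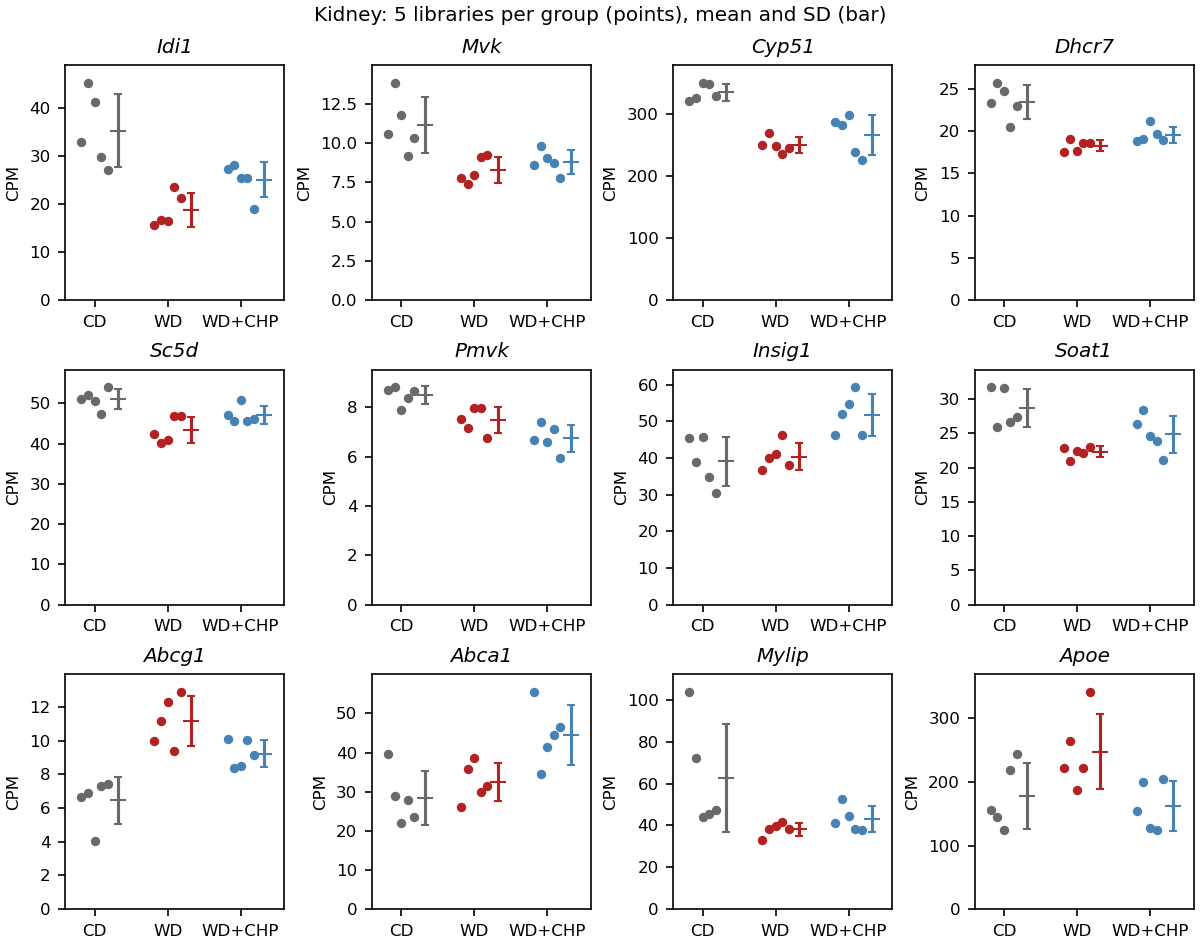
CPM of 12 members in the 15 kidney libraries, 5 per group, with the mean and SD as bars; each axis starts at 0. *Idi1*, *Cyp51*, *Dhcr7* and *Sc5d* show CD above WD with no overlap, *Abcg1* shows the reverse, and 2 CD libraries of *Mylip* stand far above the other 3.

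Among the genes that control SREBP2, *Scap* and *Insig1* passed in at least 1 kidney comparison by edgeR, and *Srebf2* and *Stard4* in none. *Scap* stood at 79.8, 80.8, 79.0, 76.5 and 80.2 CPM on CD, 76.7, 69.6, 70.3, 70.1 and 69.5 on WD and 74.4, 64.7, 71.4, 70.7 and 67.8 on WD+CHP. WD replicate 1 was the only WD library to reach the CD values. It fell by 10.1% in WD vs. CD (log2 fold change -0.15, standard error 0.04, adjusted p = 0.0248), a call kept in 2 of 10 fits without 1 library, and by 11.9% in WD+CHP vs. CD (log2 fold change -0.18, standard error 0.04, adjusted p = 0.00898), kept in 10 of 10. *Insig1* read 45.4, 38.9, 45.8, 34.9 and 30.5 CPM on CD, 36.6, 40.0, 40.9, 46.2 and 38.1 on WD and 46.2, 51.8, 54.8, 59.3 and 46.1 on WD+CHP. All WD+CHP libraries exceeded all CD libraries, and the CD and WD values overlapped. *Insig1* rose by 32.2% in WD+CHP vs. CD (log2 fold change 0.40, standard error 0.10, adjusted p = 0.0186), lost only without WD+CHP replicate 4 (adjusted p = 0.0536), and did not pass in WD vs. CD (log2 fold change 0.05, standard error 0.10, adjusted p = 0.819). *Srebf2* itself had a mean of 104 ± 7 CPM on CD, 96.1 ± 4.5 CPM on WD and 94.5 ± 1.9 CPM on WD+CHP (SD, n = 5), and its adjusted p was 0.123 and 0.0559 in the comparisons with CD, the latter passing with DESeq2 (adjusted p = 0.0373) and with scaling by total count (adjusted p = 0.0115). *Stard4* moved by -0.0023 and 0.08 on the log2 scale, with adjusted p of 0.989 and 0.486.

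The LXR targets of the kidney did not move one way. *Abcg1*, which exports cholesterol to high-density lipoprotein, read 6.65, 6.92, 4.05, 7.30 and 7.43 CPM on CD, 10.0, 11.2, 12.3, 9.42 and 12.9 on WD and 10.1, 8.40, 8.51, 10.0 and 9.15 on WD+CHP. The CD libraries lay below all others, with CD replicate 3 lowest. It rose by 72.4% in WD vs. CD (log2 fold change 0.79, standard error 0.13, adjusted p = 0.00165) and by 42.8% in WD+CHP vs. CD (log2 fold change 0.51, standard error 0.13, adjusted p = 0.0196), in all fits that left out 1 library. *Abca1*, which loads cholesterol onto lipid-poor apolipoproteins, was at 39.7, 28.8, 22.0, 27.8 and 23.4 CPM on CD, 26.2, 35.7, 38.7, 30.0 and 31.6 on WD and 55.5, 34.5, 41.5, 44.4 and 46.5 on WD+CHP. CD replicate 1 stood among the WD+CHP values, and the other CD libraries lay below them. *Abca1* rose by 56.9% in WD+CHP vs. CD (log2 fold change 0.65, standard error 0.15, adjusted p = 0.0104), and WD vs. CD did not pass (log2 fold change 0.19, standard error 0.15, adjusted p = 0.456). The 10 macrophage markers summed to 131 to 149 CPM on CD, 124 to 158 on WD and 111 to 147 on WD+CHP, ranges that overlapped. Not all moved in 1 direction. *Csf1r* (mean 67.0 CPM on CD and 58.2 on WD), *Adgre1* and *Cd163* had lower means on WD, and the others had higher ones. Only *C1qb* separated CD from WD (15.9 to 17.2 and 17.9 to 21.7 CPM). The part of these markers was not tested.
*Mylip*, a ubiquitin ligase, read 104, 72.2, 44.2, 45.4 and 47.4 CPM on CD, 33.0, 38.1, 39.6, 41.6 and 38.5 on WD and 41.1, 52.8, 44.5, 38.2 and 37.9 on WD+CHP. CD replicates 1 and 2 stood far above the other 3 CD libraries, although all 5 exceeded the WD libraries. It fell in WD vs. CD (log2 fold change -0.71, standard error 0.19, adjusted p = 0.0267), and the call was lost without CD replicate 1 (log2 fold change -0.45, adjusted p = 0.0507), CD replicate 2 (adjusted p = 0.0642), WD replicate 1 (adjusted p = 0.0645) or WD replicate 2 (adjusted p = 0.0524). WD+CHP vs. CD did not pass (log2 fold change -0.55, standard error 0.19, adjusted p = 0.0717). *Apoe* was at 157, 144, 124, 219 and 245 CPM on CD, 222, 264, 187, 222 and 342 on WD and 155, 199.8, 127, 124 and 205 on WD+CHP, and all 3 groups overlapped. It did not pass in WD vs. CD (log2 fold change 0.48, standard error 0.20, adjusted p = 0.138), and its highest value was in WD replicate 5, the library with the most *Alb*, without which the log2 fold change was 0.34. CD replicate 1, the next highest in *Alb* (81.4 CPM), had *Apoe* at 157 CPM. CD replicate 5, the lowest in *Alb* (8.98 CPM), had it at 245 CPM. The part of liver RNA in *Apoe* was not tested. *Nr1h3* had means of 39.0 ± 2.2, 41.1 ± 1.8 and 41.2 ± 2.7 CPM in CD, WD and WD+CHP (SD, n = 5) and passed in no comparison.
*Nr1h2* read 80.1, 85.0, 79.1, 78.2 and 87.2 CPM on CD, 75.2, 73.0, 70.7, 78.4 and 76.6 on WD and 74.4, 72.6, 76.1, 73.3 and 75.4 on WD+CHP. The WD+CHP libraries lay below the CD libraries, and WD overlapped CD. It fell by 8.7% in WD vs. CD (log2 fold change -0.13, standard error 0.04, adjusted p = 0.0402) and by 9.3% in WD+CHP vs. CD (log2 fold change -0.14, standard error 0.04, adjusted p = 0.0271), calls that held in 2 and 5 of 10 fits without 1 library.

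Of the transport and storage genes, *Soat1* read 31.7, 26.0, 31.6, 26.6 and 27.4 CPM on CD, 22.9, 21.0, 22.4, 22.2 and 23.0 on WD and 26.4, 28.3, 24.6, 23.9 and 21.2 on WD+CHP. The WD libraries were closely grouped below all CD libraries, and WD+CHP overlapped both. It fell by 22.2% in WD vs. CD (log2 fold change -0.36, standard error 0.07, adjusted p = 0.00551) and did not pass in WD+CHP vs. CD (log2 fold change -0.20, standard error 0.07, adjusted p = 0.0759). *Scarb1*, *Npc1* and *Npc2* passed in no kidney comparison, and their log2 fold changes in WD vs. CD were -0.14, -0.07 and -0.01.
The summed level of 9 adipocyte markers moved with the diet, at 197 to 253 CPM on CD, 166 to 177 on WD and 153 to 193 on WD+CHP. *Pnpla2* made up most of it, at 153 to 211, 124 to 133 and 108 to 144 CPM in these groups, and *Lipe* (15.3 to 18.1, 12.2 to 13.3 and 12.7 to 16.1 CPM) was likewise lower in WD than in CD with no overlap. *Lep* was at 0 counts in all CD libraries and at 0.0265 to 0.135 CPM on WD. *Adipoq* (mean 0.525 CPM on CD and 0.277 on WD), *Cfd* (1.89 and 0.335), *Retn* (0.296 and 0.0680), *Plin1*, *Cidec* and *Fabp4* had lower means on WD, and their groups overlapped. Proximal tubule markers summed to 18543 to 19903 CPM on CD, 19877 to 20876 on WD and 19451 to 22057 on WD+CHP, and not all moved in 1 direction. *Slc5a2* (179 to 216 CPM on CD and 247 to 288 on WD), *Miox* (1033 to 1123 and 1302 to 1459.7) and *Pck1* (2878 to 3419.7 and 3587 to 3885) were higher in WD than in CD with no overlap, *Slc27a2* was lower with no overlap (3041 to 3460.2 and 2623 to 2934), and the other 6 overlapped. Their part in the kidney results was not tested.

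Over WD+CHP vs. CD in kidney, 11 of 32 members passed, 4 upwards (*Lss*, *Insig1*, *Abca1* and *Abcg1*) and 7 downwards (*Mvk*, *Pmvk*, *Idi1*, *Cyp51*, *Dhcr7*, *Scap* and *Nr1h2*), where 12.1% of all genes passed (6.25% upwards, 5.84% downwards). This comparison and WD vs. CD share the CD libraries. The count was 6 without WD+CHP replicate 4 and 17 with scaling by total count, which shifted the median of all genes by -0.05.
The CHP comparison itself, WD+CHP vs. WD, gave 0 of 32 members in kidney, where 0.105% of all genes passed. At an unadjusted p under 0.05 there were 9 members, against 11.4% of all genes, and by DESeq2 and limma-voom 1 (*Insig1*, adjusted p = 0.0475) and 0 passed. The 9 were *Idi1* (log2 fold change 0.42, standard error 0.15, adjusted p = 0.283), *Sqle*, *Sc5d*, *Soat1*, *Insig1* (log2 fold change 0.35, standard error 0.10, adjusted p = 0.177) and *Abca1* (log2 fold change 0.46, standard error 0.15, adjusted p = 0.238) with a higher mean in WD+CHP, and *Pmvk*, *Abcg1* and *Apoe* (log2 fold change -0.61, standard error 0.20, adjusted p = 0.241) with a lower one. The median log2 fold change was 0.05 over the SREBP2-driven genes, 0.0040 over the LXR-driven genes and -0.0058 over all genes.

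**Figure D3:**
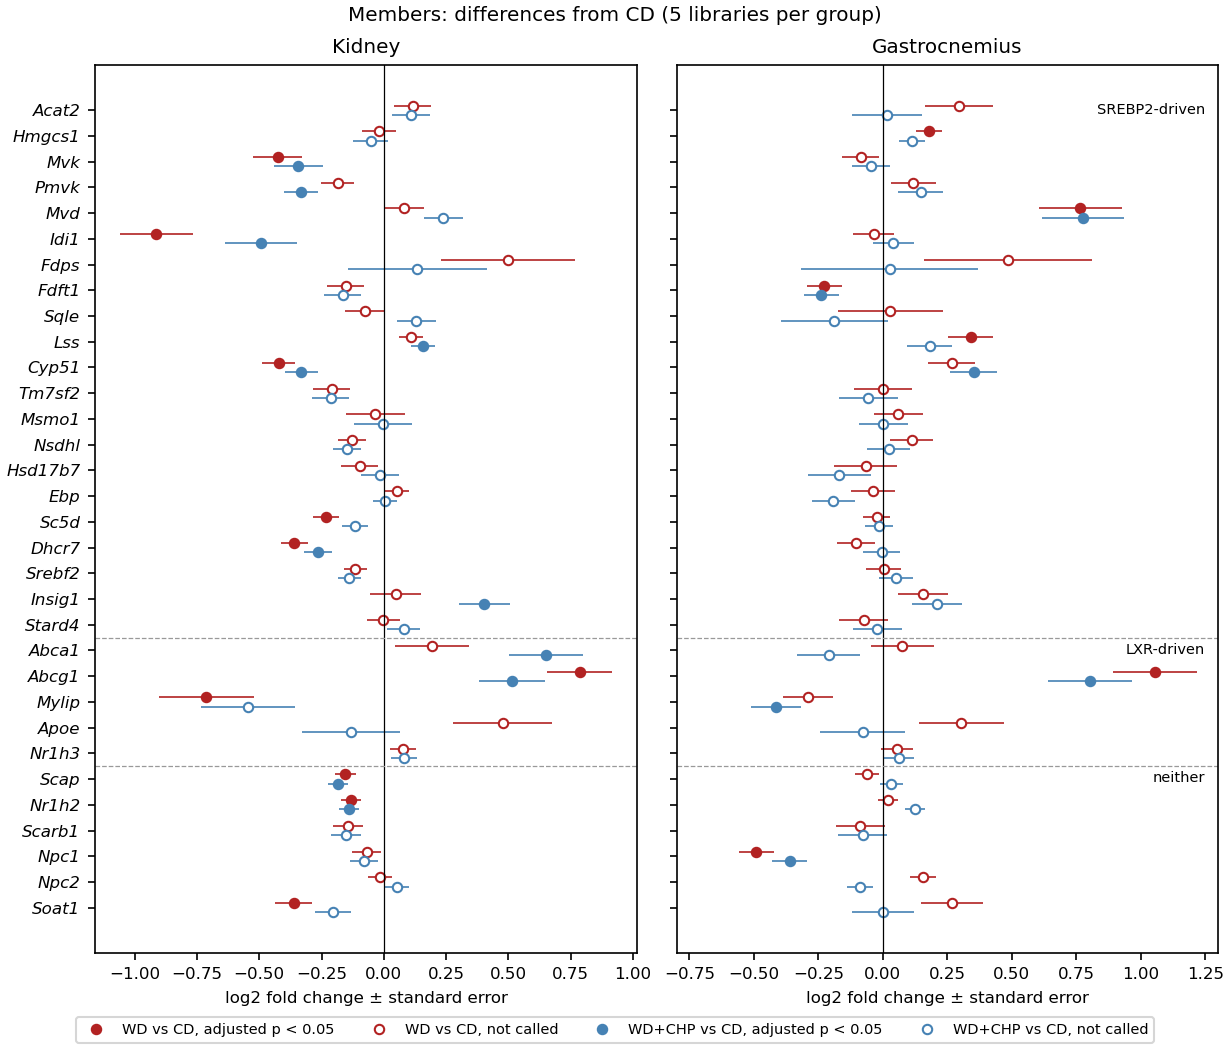
Log2 fold change with its standard error for the 32 members in kidney (left) and gastrocnemius (right), WD vs. CD in red and WD+CHP vs. CD in blue, filled where the adjusted p is under 0.05. Filled points in kidney lie mostly left of 0 among the SREBP2-driven genes (5 of 5 in WD vs. CD), whereas gastrocnemius has 3 to the right and 1 to the left.

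In gastrocnemius 3 synthesis enzymes rose in WD vs. CD (*Mvd*, *Lss* and *Hmgcs1*), 1 fell (*Fdft1*) and 14 did not pass. Over all members 6 of 32 passed in WD vs. CD, 4 upwards and 2 downwards, where 8.63% of the 15419 genes tested passed (4.67% upwards, 3.96% downwards; edgeR). In WD+CHP vs. CD 6 passed, 3 upwards and 3 downwards, where 9.40% of all genes passed (4.85% upwards, 4.55% downwards). Median log2 fold changes of the SREBP2-driven genes were 0.03 and 0.01 in these comparisons, and those of all genes were 0.0013 and -0.01. Without CD replicate 1, or without both libraries high in hepatocyte markers, the WD vs. CD count was 3. In the latter fit *Lss* (adjusted p = 0.0977), *Fdft1* (adjusted p = 0.127) and *Hmgcs1* (adjusted p = 0.137) no longer passed.

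*Mvd*, the mevalonate diphosphate decarboxylase, was read at 4.86, 7.51, 5.18, 5.27 and 4.78 CPM on CD, 11.1, 9.70, 9.96, 6.76 and 9.44 on WD and 8.69, 8.28, 9.10, 7.93 and 13.3 on WD+CHP. CD replicate 2 stood above the other CD libraries and exceeded WD replicate 4, and the WD+CHP libraries lay above all CD libraries. *Mvd* rose by 69.9% in WD vs. CD (log2 fold change 0.76, standard error 0.16, adjusted p = 0.00684) and by 71.2% in WD+CHP vs. CD (log2 fold change 0.78, standard error 0.16, adjusted p = 0.00668), in every fit that left out 1 library.
*Lss* read 3.77, 4.35, 4.69, 4.15 and 4.19 CPM on CD, 5.51, 5.13, 5.48, 6.00 and 4.65 on WD and 4.41, 5.24, 5.25, 4.88 and 4.22 on WD+CHP. Only WD replicate 5 reached the CD range. It rose by 26.5% in WD vs. CD (log2 fold change 0.34, standard error 0.09, adjusted p = 0.0214), lost without CD replicate 1 (adjusted p = 0.0546) or WD replicate 4 (adjusted p = 0.0508). *Hmgcs1* stood at 32.5, 32.6, 35.3, 33.9 and 29.8 CPM on CD, 37.1, 37.9, 38.8, 37.5 and 34.5 on WD and 35.9, 37.0, 36.9, 32.9 and 34.7 on WD+CHP. CD replicate 3 exceeded WD replicate 5, and the other CD libraries lay below WD. Its rise of 13.2% in WD vs. CD (log2 fold change 0.18, standard error 0.05, adjusted p = 0.0376) was kept in 3 of 10 fits without 1 library.
*Cyp51*, abundant in kidney, was read at 4.74, 4.73, 3.56, 3.97 and 4.44 CPM in the CD muscles, 5.41, 5.04, 5.54, 4.54 and 5.26 in WD and 5.83, 5.64, 5.78, 4.69 and 5.42 in WD+CHP. CD replicates 1 and 2 overlapped the lowest library of either other group. It rose by 27.6% in WD+CHP vs. CD (log2 fold change 0.35, standard error 0.09, adjusted p = 0.0219), lost without CD replicate 3 (adjusted p = 0.0575) or WD+CHP replicate 3 (adjusted p = 0.0590), and WD vs. CD did not pass (log2 fold change 0.27, standard error 0.09, adjusted p = 0.0767). *Fdft1* read 76.3, 70.5, 76.0, 72.6 and 88.9 CPM on CD, 65.7, 66.5, 64.3, 59.1 and 72.7 on WD and 67.5, 61.5, 61.7, 71.9 and 63.5 on WD+CHP. The groups overlapped, with CD replicate 5 highest. Its falls in WD vs. CD (log2 fold change -0.23, standard error 0.07, adjusted p = 0.0468) and WD+CHP vs. CD (log2 fold change -0.24, standard error 0.07, adjusted p = 0.0368) held in 2 and 4 of 10 fits without 1 library.
The other 13 enzymes passed in no gastrocnemius comparison, including *Idi1* (3.46, 3.59, 3.90, 3.34 and 3.38 CPM on CD and 3.11, 3.30, 3.53, 3.42 and 3.90 on WD), and neither did *Srebf2*, *Insig1*, *Stard4* or *Scap*.

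**Figure D4:**
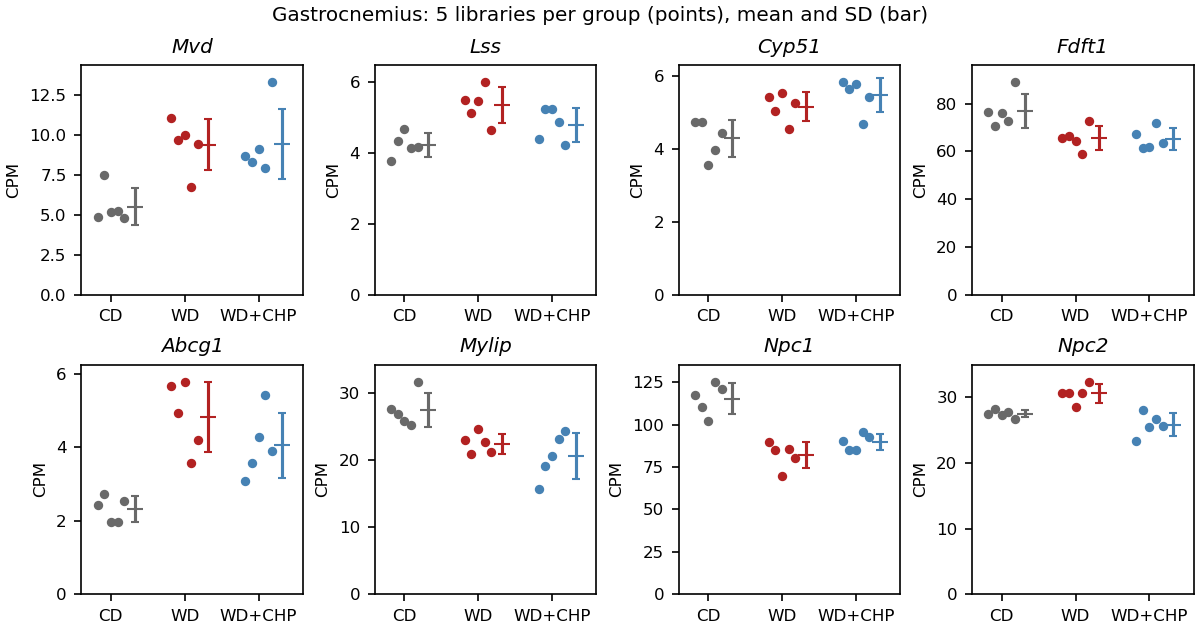
CPM of 8 members in the 15 gastrocnemius libraries, 5 per group, with the mean and SD as bars; each axis starts at 0. *Abcg1* and *Npc1* separate the CD libraries from the others, and the WD libraries of *Npc2* lie above both other groups.

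*Abcg1* rose most of all members in muscle. It stood at 2.42, 2.72, 1.97, 1.95 and 2.54 CPM on CD, 5.66, 4.93, 5.79, 3.56 and 4.19 on WD and 3.08, 3.58, 4.27, 5.43 and 3.91 on WD+CHP, and every CD library lay below the other groups. The rise was 107.8% in WD vs. CD (log2 fold change 1.06, standard error 0.16, adjusted p = 0.000778) and 74.6% in WD+CHP vs. CD (log2 fold change 0.80, standard error 0.16, adjusted p = 0.00589), in all fits without 1 library. *Mylip* read 27.6, 26.9, 25.9, 25.3 and 31.7 CPM on CD, 23.0, 20.8, 24.6, 22.7 and 21.2 on WD and 15.7, 19.1, 20.6, 23.1 and 24.4 on WD+CHP. The CD libraries were above all others. *Mylip* fell by 25.1% in WD+CHP vs. CD (log2 fold change -0.42, standard error 0.10, adjusted p = 0.0134), and WD vs. CD did not pass (log2 fold change -0.29, standard error 0.10, adjusted p = 0.0712) although the groups did not overlap and DESeq2 called it (adjusted p = 0.0431). *Abca1* had means of 27.5 ± 4.0, 29.0 ± 5.5 and 23.7 ± 3.2 CPM, and *Nr1h3* of 12.9 ± 0.7, 13.4 ± 1.0 and 13.5 ± 0.9 CPM, in CD, WD and WD+CHP (SD, n = 5), and neither passed. *Apoe* read 90.8, 77.0, 65.2, 51.1 and 63.5 CPM on CD and 75.0, 89.7, 122, 76.4 and 66.5 on WD, and its highest value in either group was in the library highest in hepatocyte markers. It did not pass (log2 fold change 0.30, standard error 0.16, adjusted p = 0.275).
Adipocyte markers differed between the groups in these muscles, and not all in 1 direction. The 9 markers, all of which passed the filter, summed to 367 to 496 CPM on CD, 459 to 500 on WD and 412 to 465 on WD+CHP. *Lep* stood at 0.561 to 3.84, 19.4 to 24.9 and 3.24 to 9.51 CPM in these groups, and *Adipoq* at 5.60 to 10.9, 14.6 to 17.2 and 5.13 to 9.52 CPM. *Plin1* and *Cidec* were likewise higher in WD than in CD with no overlap, *Cfd* was lower with no overlap (26.3 to 53.0, 9.63 to 18.4 and 8.24 to 16.6 CPM), and *Retn*, *Lipe*, *Pnpla2* and *Fabp4* overlapped. The 10 macrophage markers summed to 76.8 to 128, 87.9 to 129 and 65.4 to 127 CPM. Fast muscle fibre markers summed to 208157 to 247502 CPM on CD, 184631 to 216218 on WD and 189333 to 222639 on WD+CHP. Of these, *Myh1* (mean 4066 CPM on CD and 5031 on WD) and *Myh2* (2878 and 4026) had higher means on WD, and the others had lower ones. *Lep* and *Adipoq* also separated WD from WD+CHP with no overlap. The part of these cell types in the gastrocnemius results, be it WD vs. CD, WD+CHP vs. CD or WD+CHP vs. WD, was not tested.

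*Npc1* and *Npc2* act together to carry cholesterol out of lysosomes. *Npc1* was read at 118, 111, 102, 126 and 121 CPM on CD, 89.6, 84.9, 69.9, 85.8 and 80.3 on WD and 90.7, 84.9, 85.3, 95.6 and 93.0 on WD+CHP. All CD libraries lay above all others. It fell by 28.9% in WD vs. CD (log2 fold change -0.49, standard error 0.07, adjusted p = 0.000373) and by 22.1% in WD+CHP vs. CD (log2 fold change -0.36, standard error 0.07, adjusted p = 0.00385), in all fits without 1 library. *Npc2* read 27.4, 28.2, 27.3, 27.7 and 26.7 CPM on CD, 30.7, 30.7, 28.5, 30.6 and 32.4 on WD and 23.4, 28.0, 25.5, 26.7 and 25.5 on WD+CHP. The WD libraries lay above both other groups. *Npc2* was the 1 member called in WD+CHP vs. WD (log2 fold change -0.24, standard error 0.05, adjusted p = 0.0373), where 0.409% of all genes passed, and WD vs. CD did not pass by edgeR (log2 fold change 0.16, standard error 0.05, adjusted p = 0.0581) but did by DESeq2 (adjusted p = 0.0326).
The *Npc2* call depended on the fit. It was kept in 2 of 10 fits without 1 library (adjusted p between 0.0220 and 0.120) and lost when only the WD and WD+CHP libraries were fitted (adjusted p = 0.118). It was also lost without the 2 libraries high in hepatocyte markers (adjusted p = 0.0560). At an unadjusted p under 0.05 there were 5 members in WD+CHP vs. WD, against 12.5% of all genes: *Npc2*, *Abca1*, *Apoe* and *Soat1* with a lower mean in WD+CHP and *Nr1h2* with a higher one. *Nr1h2* read 36.5, 38.0, 37.8, 35.8 and 37.4 CPM on CD, 37.3, 37.9, 36.0, 39.6 and 37.3 on WD and 41.1, 39.4, 39.2, 42.3 and 40.2 on WD+CHP, with WD+CHP above CD in every library, and it did not pass in WD+CHP vs. CD (log2 fold change 0.12, standard error 0.04, adjusted p = 0.0526), although DESeq2 (adjusted p = 0.0160) and both other scalings called it. *Soat1*, which had fallen in kidney, read 1.95, 2.44, 2.03, 2.02 and 2.52 CPM on CD and 3.45, 2.64, 2.32, 2.22 and 2.56 on WD (log2 fold change 0.27, standard error 0.12, adjusted p = 0.186).

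The diet effects of the tissues were compared in 1 model of all 30 libraries, which treats them as independent although some share a mouse. In it 6.24% of the 13943 genes tested in both differed. Of the 32 members 5 did, and 11 with scaling by total count, which shifted the median difference of all genes by -0.07 (*Mvk*, *Pmvk*, *Sc5d*, *Dhcr7*, *Nr1h2* and *Npc2* were added). *Cyp51* fell in kidney and had a higher mean in muscle (difference of log2 fold changes, kidney minus gastrocnemius, -0.68, standard error 0.11, adjusted p = 0.000213), and *Soat1* did likewise (-0.62, standard error 0.13, adjusted p = 0.00438). *Idi1* fell in kidney and had a log2 fold change of -0.04 in muscle (-0.87, standard error 0.18, adjusted p = 0.00336). *Mvd* rose in muscle and had a log2 fold change of 0.08 in kidney (-0.67, standard error 0.18, adjusted p = 0.0233), and *Npc1* fell in muscle and had one of -0.07 in kidney (0.43, standard error 0.09, adjusted p = 0.00312). These calls held in all 20 fits that left out 1 library, and without both libraries high in hepatocyte markers the adjusted p of *Mvd* was 0.0674.
Of the LXR-driven genes 0 of 5 differed between tissues (0 at an unadjusted p under 0.05, 0 by DESeq2 and limma-voom). *Abcg1* rose in both, and the difference of its effects did not pass the test (-0.26, standard error 0.22, adjusted p = 0.546). For WD+CHP vs. WD 0.689% of all genes differed, and the 1 member was *Npc2* (0.30, standard error 0.07, adjusted p = 0.0270), lost in 6 of 20 fits without 1 library. DESeq2 called *Abca1* as well (adjusted p = 0.0275).

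**Figure D5:**
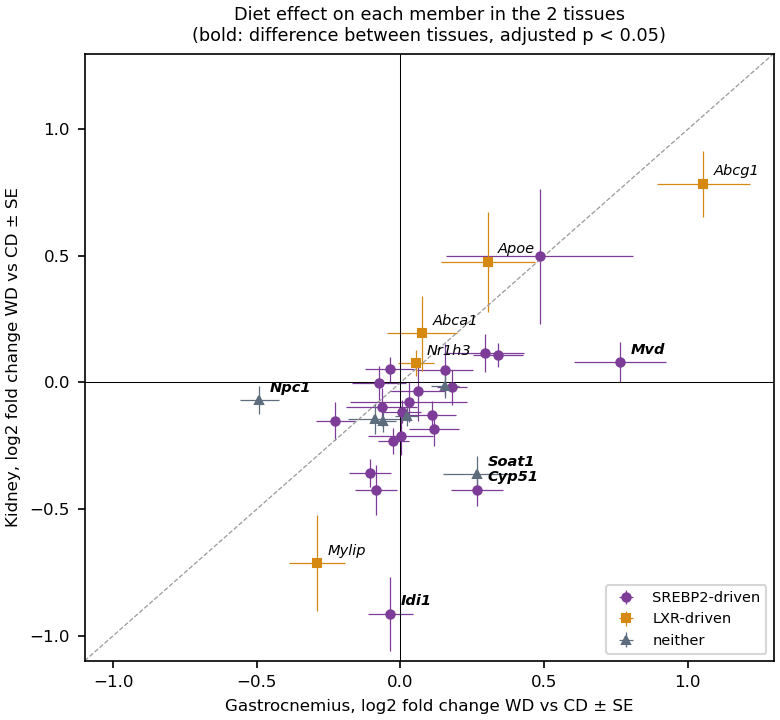
Log2 fold change in WD vs. CD of each member in gastrocnemius (x) and kidney (y), with standard errors, by class; the dashed line marks equal effects and bold names the 5 genes whose effects differed. *Cyp51*, *Idi1*, *Soat1* and *Mvd* lie below the line and *Npc1* above it, and none of the 5 LXR-driven genes is among those in bold.

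Other genes of these pathways were counted from 3 lists of 35 genes in all. In kidney 6 of the 33 tested passed in WD vs. CD, 3 upwards and 3 downwards, where 9.65% of all genes did. *Lipa*, the lysosomal acid lipase that frees cholesterol from its esters, rose (log2 fold change 0.37, standard error 0.08, adjusted p = 0.00765), as did *Lrp1*, a lipoprotein receptor (log2 fold change 0.39, standard error 0.11, adjusted p = 0.0370), and *Arl4c*, an LXR target (log2 fold change 0.29, standard error 0.06, adjusted p = 0.00428). *Nceh1*, a cholesteryl ester hydrolase, fell (log2 fold change -0.30, standard error 0.07, adjusted p = 0.00828), as did *Cyp7b1*, an oxysterol hydroxylase (log2 fold change -0.68, standard error 0.18, adjusted p = 0.0265), and *Mbtps1*, the site-1 protease that cuts SREBP2 (log2 fold change -0.12, standard error 0.03, adjusted p = 0.0113). In fits without 1 library *Lrp1* was called in 3 of 10 and *Cyp7b1* in 5 of 10 (adjusted p up to 0.0913 and 0.0665), and the other 4 in all. In WD+CHP vs. CD 5 passed, all upwards, where 12.1% of all genes did: *Lipa*, *Srebf1* and *Vldlr*, kept in 10 of 10 such fits, *Smpdl3a* in 6 and *Arl4c* in 4. In WD+CHP vs. WD 0 of 33 passed.
In gastrocnemius 3 of the 32 tested passed in WD vs. CD, where 8.63% of all genes did. All 3 rose and were from the list of LXR targets: *Scd1*, the stearoyl-CoA desaturase (log2 fold change 1.07, standard error 0.18, adjusted p = 0.00145), *Lpcat3*, which remodels phospholipids (log2 fold change 0.28, standard error 0.06, adjusted p = 0.00965), and *Pltp*, the phospholipid transfer protein (log2 fold change 0.35, standard error 0.10, adjusted p = 0.0298), which was called in 4 of 10 fits without 1 library. *Scd1*, which adipocytes also express strongly, fell in WD+CHP vs. WD (log2 fold change -1.12, standard error 0.18, adjusted p = 0.0111) in 9 of 10 fits without 1 library, and was the 1 gene of these lists called there. In WD+CHP vs. CD 4 passed, where 9.40% of all genes did: *Lpcat3*, *Srebf1* and *Nceh1* upwards and *Tmem97* downwards, called in 10, 5, 2 and 6 of 10 fits without 1 library.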

How the data were processed

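Total RNA of kidney and gastrocnemius was sequenced after poly(A) selection on a BGISEQ instrument, with 5 libraries per group and tissue. The authors deposited raw counts per gene, made, per the submitters' processing notes, with STAR 2.7.3a on mm10. The counting tool, annotation and strand setting are not given in the sources used here. All 30 count columns matched a sample by name, and 0 were left without one. The labels and the study's methods differ on starting tissue and extraction kit.
Counts were scaled by TMM within each tissue, genes were filtered with filterByExpr (minimum count 10), and the 3 groups were fitted together by edgeR 4.0.16's two-sided quasi-likelihood F test in R 4.3.3, with Benjamini-Hochberg adjustment over all genes tested and a threshold of 0.05. All adjusted p are from this test unless another tool is named. Tissue differences came from 1 model of all libraries. CPM values use the TMM-scaled totals, and standard errors were taken as the log2 fold change over the square root of F. Library depth was even within each tissue, and no pair of libraries in a group agreed within sampling noise (chi-square per gene of at least 8.82).
Alternatives were DESeq2's size factors, scaling by total count, DESeq2 1.42.0, limma-voom (limma 3.58.1), no filter, only the groups compared, the replicate number as a block, and leaving out each library. A further one, leaving out the 2 gastrocnemius libraries highest in hepatocyte markers, was chosen after seeing the data. The steps were tested on simulated data. Members, lists and tests were chosen with earlier results of these data known. Named genes were the members called in at least 1 comparison, the most abundant 2 of each role in each tissue, and called genes of the 3 further lists; *Apoe*, and members near the threshold, were added after their values were seen.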

Additional observations from a re-analysis of the deposited data

Results flagged for a closer look

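Single libraries stood apart from the other 4 of their group in 13 of 192 groups searched, by a gap test that flags about 1 in 20 groups by chance. In gastrocnemius, *Mvd* was at 7.51 CPM in CD replicate 2 (4.78 to 5.27 CPM in the others) and at 13.3 CPM in WD+CHP replicate 5 (7.93 to 9.10 CPM). *Abca1* was at 29.4 CPM in WD+CHP replicate 4 (22.1 to 22.6 CPM) and *Scarb1* at 23.4 CPM in the same library (17.5 to 19.0 CPM). *Dhcr7* was at 7.93 CPM in WD replicate 3 (6.47 to 6.61 CPM), *Nr1h3* at 15.1 CPM in WD replicate 4 (12.6 to 13.3 CPM), *Sc5d* at 31.3 CPM in WD+CHP replicate 1 (27.2 to 28.1 CPM) and *Fdps* at 0.234 CPM in CD replicate 3 (0.114 to 0.134 CPM).
In kidney, *Abcg1* was at 4.05 CPM in CD replicate 3 (6.65 to 7.43 CPM). *Scap* was at 76.7 CPM in WD replicate 1 (69.5 to 70.3 CPM) and *Nr1h3* at 44.3 CPM in the same library (39.8 to 40.7 CPM). *Sc5d* was at 50.9 CPM in WD+CHP replicate 3 (45.5 to 47.0 CPM) and *Fdps* at 0.493 CPM in WD+CHP replicate 2 (0.306 to 0.352 CPM).
Effects that differed between the tissues, as kidney minus gastrocnemius on the log2 scale with edgeR, were those of WD vs. CD on *Mvd* (-0.67), *Idi1* (-0.87), *Cyp51* (-0.68), *Soat1* (-0.62) and *Npc1* (0.43), and that of WD+CHP vs. WD on *Npc2* (0.30).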

How the results depend on the processing

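None of the 40 called results of the 32 members changed direction under an alternative that was run, and 24 were called in every fit run. Without 1 library in turn, the members called ranged from 7 to 11 in kidney WD vs. CD, 0 to 0 in WD+CHP vs. WD and 6 to 12 in WD+CHP vs. CD. In gastrocnemius they ranged from 3 to 6, 0 to 1 and 4 to 7, and those that differed between tissues from 5 to 7 (WD vs. CD) and 0 to 1 (WD+CHP vs. WD). DESeq2 called 1 member in kidney WD+CHP vs. WD and 2 in the tissue difference of WD+CHP vs. WD, and with no filter on low counts that difference had 0. Scaling by total count gave 17 in kidney WD+CHP vs. CD and 11 in the tissue difference of WD vs. CD. In gastrocnemius WD+CHP vs. WD the count was 0 with no filter, with only the 2 groups compared, with the replicate block and without the 2 libraries high in hepatocyte markers, and the last gave 3 in WD vs. CD. The cause was not tested.
The replicate numbers did not pair the libraries. Correlations of same-numbered deviations lay between -0.127 and 0.146, and in 8 of 30 (kidney) and 5 of 30 (gastrocnemius) comparisons of a library with the 5 of another group its own number correlated best. With the number as a block, kidney had 10, 0 and 12 called members in the same order of comparisons, gastrocnemius had 5, 0 and 6, and 5 and 1 differed between tissues. Among the members the block changed 5 calls: *Nr1h2* (kidney WD vs. CD, adjusted p = 0.0598), *Fdft1* (gastrocnemius WD vs. CD, 0.0575) and *Npc2* (gastrocnemius WD+CHP vs. WD, 0.0631) were lost, and *Apoe* (kidney WD vs. CD, 0.0291) and *Mvd* (kidney WD+CHP vs. CD, 0.0342) were gained. Among the genes of the 3 further lists, *Cyp7b1* (kidney WD vs. CD, 0.0526), *Smpdl3a* and *Arl4c* (kidney WD+CHP vs. CD, 0.0536 and 0.0599) and *Srebf1* (gastrocnemius WD+CHP vs. CD, 0.0615) were lost. *Srebf1* (kidney WD vs. CD, 0.0397), *Aacs* and *Nceh1* (gastrocnemius WD vs. CD, 0.0241 and 0.0310) and *Lrp1* (gastrocnemius WD+CHP vs. CD, 0.0356, and between tissues in WD vs. CD, 0.0399) were gained.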
